A study of Mus musculus with 4 samples.

Results

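Vehicle-treated C2C12 myotubes, the steroid-deprived baseline of a glucocorticoid study, are described here by the RNA held on their chromatin. C2C12 is an established line of mouse muscle precursor cells, labelled female, whose cells leave the cycle and fuse into multinucleate myotubes. The members are the 2 libraries whose titles call them vehicle, out of 4 samples in the series. Both came from myotubes kept without steroid and given vehicle for 2 h, and the labels name no added gene, deletion or other agent. The remaining samples received dexamethasone and were not used. Neither the vehicle, the differentiation medium nor the source of each replicate is given, so the spread between these libraries may be technical.

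RNA was taken from the chromatin pellet of lysed nuclei, which holds transcripts still being made and those that stay on chromatin. Such RNA reports what polymerases are copying more closely than the stable messenger pool does, and a long gene gathers reads along its whole path where introns are counted. In forming myotubes, the MyoD family and its MEF2 partners switch on a set of sarcomere, membrane and calcium-handling genes. Skeletal muscle is also a known target of glucocorticoids, which act through a nuclear receptor carried by chaperones until hormone binds.

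Levels are counts per 1000000 counts of the library (CPM). They are also given per kb of the whole gene where genes are set in order, except where an order is said to be by CPM, and replicate 1 stands before replicate 2 throughout. The replicate 1 library held 19631435 counts and the replicate 2 library 35116830, so 3 counts, taken as the floor, stand for 0.153 and 0.0854 CPM. Of 23282 features, 11475 (49.3%) reached 1 CPM in both libraries, 7668 reached 10 CPM, 1989 reached 100 CPM and 59 reached 1000 CPM. In all, 6433 features (27.6%) had 0 counts in both. Across the 9257 features with at least 100 counts in each library, log2 CPM of the libraries had a Pearson r of 0.967 and a Spearman correlation of 0.967, which describes genes and not independent replicates.

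Some zeros in the table cluster by position. Short runs, under a set length in bases, were not counted. Outside the Y chromosome, 5 longer runs of at least 50 neighbouring genes on 1 strand read 0 in both libraries. They take in 870 genes, 777 of them protein coding: 146 on the minus strand of chromosome 19, 538 in 2 runs on the minus strand of chromosome 9, 99 on the plus strand of chromosome X and 87 on its minus strand. The genes Tpm1, Xirp1, Nrap, Col12a1, Loxl1, Timp1, Tgfbr2, Smad3, Ankrd1, Cyp19a1, Snhg5, Cd3e, Acta2 and Tagln lie in these runs and are treated as not measured. Some short features were very high for their length. Cdkn2d, which borders a run on chromosome 9, stood at 3569 and 3305 CPM on a gene of 2.998 kb. Btbd35f20, which borders the minus strand run of chromosome X, was at 329 and 300 CPM on 1.96 kb. The small nucleolar RNA Snora19 was at 850 and 800 CPM on 0.132 kb but is not listed as a bordering gene. Levels of the other bordering genes are not given. Genes lying inside another gene of the same strand were also mostly at 0: 132 of 180 protein-coding genes (73.3%), 103 of 104 snoRNA genes (99.0%) and 326 of 356 microRNA genes (91.6%) had no count. Among protein-coding genes inside one of the opposite strand the share was 108 of 384 (28.1%), and among those inside none 3979 of 19074 (20.9%). The protein-coding counts leave out genes in the runs, and the snoRNA and microRNA counts do not. For snoRNA and microRNA genes the share outside another gene was not taken, so their shares do not show an effect of nesting. A 0 at a gene inside another of the same strand was not read as absence, and why these positions read 0 was not tested.

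The libraries also differed in genes that belong to neurons. Among 4 neuron markers, Snap25, a protein of synaptic vesicle fusion, had 160 counts in replicate 1 and 1 in replicate 2. Syt1, a calcium sensor of the same machinery, had 245 and 3. The RNA-binding protein genes Rbfox3 and Elavl4 had 30 counts each in replicate 1, and 3 and 0 counts in replicate 2. Together the markers held 465 counts (23.7 CPM) in replicate 1 and 7 counts (0.199 CPM) in replicate 2. Of 10599 features with at least 50 counts in replicate 1, 65 (0.613%) were more than 10-fold higher there by CPM, and 14 of the 65 had 0 counts in replicate 2 while 14 more had 1 to 3. Named after their values were seen, they include Vstm2a (126 and 0 counts), Crmp1 (105 and 0), Fabp7 (100 and 0), the glutamate receptor gene Grin2b (95 and 0), Gad1 (63 and 0) and the sodium channel gene Scn2a (227 and 21). The same set also holds the muscle genes Casq1, Myh2 and Myf6. In the other direction 1 of 11393 features (0.00878%), Pif1, passed the same bound, with 3 and 55 counts. These 65 features summed to 388 CPM in replicate 1 and 15.9 CPM in replicate 2, and their part in other differences between the libraries was not tested. Whether the reads of neuronal genes came from cells of the culture or from elsewhere cannot be told from these counts and was not tested. In bulk RNA, fewer cells of a type and less RNA per cell cannot be told apart either.

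**Figure D1:**
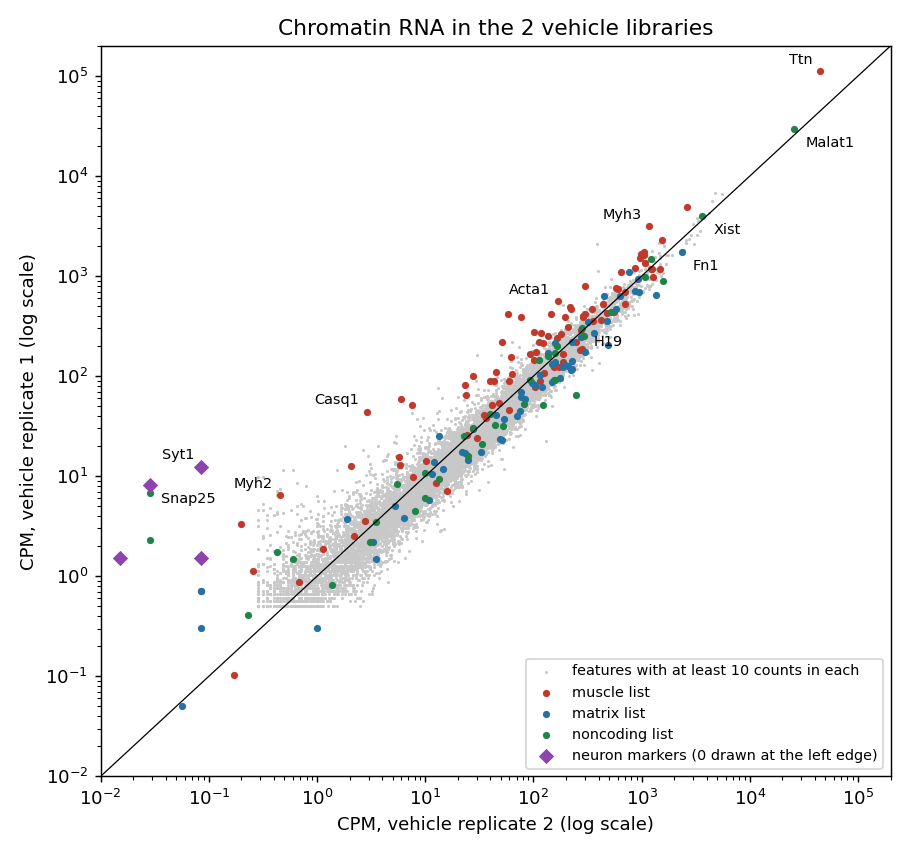
Level of each feature in vehicle replicate 1 (y axis, CPM, log scale) against vehicle replicate 2 (x axis, CPM, log scale); grey points are features with at least 10 counts in each, coloured points the muscle, matrix and noncoding lists, purple diamonds the 4 neuron markers, and the line marks equal levels. Most features lie along the line, while Casq1 (44.1 and 2.88 CPM), Myh2 (6.47 and 0.456 CPM), Snap25 (8.15 and 0.0285 CPM) and Syt1 (12.5 and 0.0854 CPM) lie well above it.

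One gene stood far above all others by CPM. Ttn, which encodes titin, the molecular spring that spans the sarcomere from Z-disc to M-band, took 11.2% of all counts in replicate 1 (95% Wilson interval 11.2 to 11.2%) and 4.44% in replicate 2 (4.43 to 4.45%), or 112171 and 44379 CPM. It ranked first in both libraries, 3.83 and 1.71 times the second feature. That feature was Malat1, a nuclear long noncoding RNA of speckles, at 29284 and 25898 CPM. Then came a set of long genes for cytoskeletal linkers and signalling proteins: the microtubule-linked kinase gene Dclk1 (6634 and 5537 CPM), the spectraplakins Macf1 (6765 and 4778 CPM) and Dst (5685 and 4488 CPM), and Cdh13, a cadherin without a cytoplasmic tail (4256 and 4242 CPM). Celf2, an RNA-binding splicing regulator, stood at 4080 and 3881 CPM, and Xist, the RNA that coats the inactive X chromosome, at 4026 and 3649 CPM. The thin filament ruler Neb followed at 4929 and 2641 CPM and the actin-bundling gene Palld at 3820 and 3251 CPM. Completing the 20 highest by mean level were Cdkn2d, Prune2 (2801 and 3493 CPM), the exchange factor Trio (3316 and 2961 CPM), the transcription factor Runx1 (2602 and 3272 CPM) and Ext1, which builds heparan sulfate (2598 and 2848 CPM). The last of them were the RNA-binding genes Msi2 (2071 and 3034 CPM) and Rbfox2 (2285 and 2592 CPM), Dip2c (2371 and 2731 CPM), the endosomal exchanger Slc9a9 (2127 and 2553 CPM) and Myh3 (3140 and 1176 CPM). The 20 highest genes of each library held 20.9% of its counts in replicate 1 and 13.2% in replicate 2, with 17 genes in common.

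Length goes with this order. Of those 20 features, 16 span more than 100 kb, and the 100 highest have a median span of 257 kb, against 26.8 kb for all features at 1 CPM or more. Genes over 100 kb, 2536 in number, held 50.4% of the replicate 1 counts and 46.4% of the replicate 2 counts. Per kb of the whole gene, 5 of the 20 stayed among the 20 highest, and per kb of exons 11 did. Whether introns were counted is not stated, so levels per kb of the whole gene are used below to set genes side by side.

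The order changed when levels were taken per kb of the whole gene. Snora19 (6439 and 6062 CPM per kb), Rmrp, the RNA of the enzyme RNase MRP (5451 and 4513 CPM per kb), Malat1 (4194 and 3709 CPM per kb) and Cdkn2d (1190 and 1102 CPM per kb) led this order. Next were Rpph1, the RNA of RNase P (204 and 783 CPM per kb), Ttn (403 and 159 CPM per kb), the microRNA gene Mir133b (256 and 233 CPM per kb) and Xist (176 and 159 CPM per kb). Snora19, Cdkn2d and Btbd35f20, which came after Xist, are the short features named above with the runs. Skeletal actin Acta1 (188 and 56.0 CPM per kb), the imprinted RNA H19 (116 and 108 CPM per kb), embryonic myosin Myh3 (131 and 49.0 CPM per kb) and the myosin-binding protein Mybph (89.9 and 89.8 CPM per kb) followed. By exon length the highest 15 also held Ddit3, whose exon length in the annotation used is only 105 bases, the light chain Myl1 (528 and 314 CPM per kb of exons) and the kinase gene Fyn (457 and 369 CPM per kb of exons). Among all features with at least 100 counts in each library, the median level was 1.43 CPM per kb of the whole gene.

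The 5 muscle genes with the highest level per kb of the whole gene were Ttn, Acta1, Myh3, Mybph and Myog. Their promoters are shown because they are the sequences from which the most densely read muscle genes start. They are the RefSeq sequences of build GRCm38.p6, each the 250 bases before the annotated start, printed 5′ to 3′ on the gene's own strand. Capitals mark, on either strand, CAGCTG (an E-box of the kind MyoD and myogenin bind), TATAAA (the TATA motif of core promoters) and CTANNNNTAG. The last is a simple pattern for MEF2 sites, which leaves the middle bases free and misses sites with other end bases.
Ttn, chr2:76982548-76982797, minus strand: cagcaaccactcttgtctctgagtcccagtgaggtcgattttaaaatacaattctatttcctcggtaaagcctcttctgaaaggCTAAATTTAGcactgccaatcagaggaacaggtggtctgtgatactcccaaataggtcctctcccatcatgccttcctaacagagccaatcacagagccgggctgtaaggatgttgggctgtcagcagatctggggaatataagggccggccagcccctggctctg
Acta1, chr8:123894776-123895025, minus strand: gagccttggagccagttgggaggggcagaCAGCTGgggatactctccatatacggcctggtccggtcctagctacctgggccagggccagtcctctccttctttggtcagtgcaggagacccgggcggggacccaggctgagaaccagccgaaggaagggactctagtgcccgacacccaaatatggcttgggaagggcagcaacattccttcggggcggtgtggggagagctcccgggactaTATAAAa
Myh3, chr11:67078050-67078299, plus strand: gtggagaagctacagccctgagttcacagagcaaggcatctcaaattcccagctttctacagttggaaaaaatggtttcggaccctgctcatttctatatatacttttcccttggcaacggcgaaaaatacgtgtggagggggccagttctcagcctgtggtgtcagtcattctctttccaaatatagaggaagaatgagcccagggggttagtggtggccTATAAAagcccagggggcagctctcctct
Mybph, chr1:134193198-134193447, plus strand: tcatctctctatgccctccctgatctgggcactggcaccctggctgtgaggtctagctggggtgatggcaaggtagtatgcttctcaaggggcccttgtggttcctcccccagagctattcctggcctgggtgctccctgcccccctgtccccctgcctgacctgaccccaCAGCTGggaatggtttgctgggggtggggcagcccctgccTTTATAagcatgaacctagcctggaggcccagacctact
Myog, chr1:134289754-134290003, plus strand: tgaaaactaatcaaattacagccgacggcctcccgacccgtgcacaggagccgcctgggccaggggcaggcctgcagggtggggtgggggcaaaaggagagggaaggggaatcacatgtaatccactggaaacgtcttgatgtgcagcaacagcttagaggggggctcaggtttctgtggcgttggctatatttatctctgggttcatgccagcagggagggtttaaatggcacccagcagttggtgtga

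A MEF2-type match lies 166 bases before the start of Ttn. Acta1 holds a CAGCTG match 221 bases and a TATAAA match 7 bases before its start, and Myh3 a TATAAA match 29 bases before. Mybph holds CAGCTG at 79 bases and TATAAA, read on the opposite strand, at 39 bases before its start. None of the 3 motifs as spelled occurs in the Myog window, where a MEF2 site of another spelling would not be marked. Of the 98 muscle genes, 68 had a promoter in the RefSeq table (250 bases before to 50 after the start). CAGCTG occurred in 27 of these 68 (39.7%), against 16.1% of all 27025 genes' promoters and 14.8% of the 9177 whose gene reached 1 CPM in both libraries. For CTANNNNTAG the shares were 10.3%, 3.7% and 3.19%, and for TATAAA 23.5%, 14.2% and 6.83%. The wider E-box CANNTG, which contains CAGCTG, was in 76.5%, 72.1% and 62.5%. These matches describe the letters and not occupied sites, and the muscle list was chosen by known function.

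Muscle genes as a group were read at high CPM. Of 98 listed genes, 95 were measured, and 88 of them (92.6%) reached 1 CPM in both libraries, against 51.2% of all 22412 measured features. The median of the list was 186 and 121 CPM, against 1.63 and 1.65 CPM over all measured features. By the mean of the libraries the list median was 169 CPM, against 24.8 CPM over features at 1 CPM or more in both. List medians were not taken per kb, and CPM goes with gene length. All 10 markers set down for myotubes (Myh3, Myog, Mymk, Ckm, Acta1, Tnnt3, Ttn, Neb, Actn2 and Chrna1) reached 1 CPM in both libraries, and the label of myotubes was not contradicted.

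Among myogenic regulators, the differentiation factor Myog was at 250 and 136 CPM, or 97.6 and 53.3 CPM per kb. The determination factor Myod1 was lower, at 9.87 and 9.22 CPM per kb (25.9 and 24.2 CPM), and its relative Myf5 at 0.584 and 0.353 CPM per kb. Myf6, the factor of mature fibres, had 66 counts in replicate 1 (3.36 CPM) and 7 in replicate 2 (0.199 CPM). Of the MEF2 partners, Mef2a stood at 9.64 and 7.64, Mef2c at 10.7 and 6.45 and Mef2d at 6.26 and 9.41 CPM per kb, levels whose ranges overlap. Six4, a homeobox factor upstream of the MyoD family, was at 53.4 and 48.3 CPM, while Pax3 of the early precursor was under 1 CPM in both (0.866 and 0.683). Myomaker (Mymk), the membrane protein that makes myoblasts fuse, was read at 15.8 and 17.8 CPM per kb, and its partner Mymx at 7.47 and 11.1 CPM per kb.

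The developmental forms of myosin heavy chain led the 6 skeletal genes listed. Embryonic Myh3 was the highest of the family at 131 and 49.0 CPM per kb, and perinatal Myh8 was next at 25.5 and 9.44 CPM per kb. Adult Myh1 (17.0 and 2.37 CPM per kb) and slow Myh7 (9.23 and 2.13 CPM per kb) were lower in each library, with ranges that overlap each other and, for Myh1, that of Myh8. The fast forms Myh4 (0.561 and 0.0915 CPM per kb) and Myh2 (0.244 and 0.0172 CPM per kb) were lowest. The order of the 6 was the same in both libraries. These genes are close in sequence, and apart from Myh7, which lies beside cardiac Myh6, they are neighbours in the genome, so reads shared between them could have been split or dropped.

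Other thick filament and M-band genes spanned a wide range. The light chains Mylpf (71.8 and 14.3 CPM per kb), Myl1 (51.9 and 30.8 CPM per kb) and Myl4 (8.78 and 6.39 CPM per kb) were high. Ventricular Myl2 was at 0.285 and 0.223 CPM per kb, and Myl3 had no count. Mybph was nearly equal in the libraries, at 700 ± 0.414 CPM (SD, n = 2). Slow Mybpc1 stood at 4.46 and 3.29 CPM per kb and fast Mybpc2 at 0.0488 and 0.0112, from only 22 and 9 counts. Of the M-band genes, Myom2 (15.99 and 11.4 CPM per kb) was above Myom3 (6.45 and 7.51) and Myom1 (3.33 and 2.44).

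In the thin filament, all 13 measured genes reached 1 CPM in both libraries. Acta1 was at 562 and 167 CPM and cardiac actin Actc1, which young skeletal muscle also makes, at 269 and 118 CPM. Per kb that is 188 and 56.0 against 42.9 and 18.9. Among troponins T, cardiac-type Tnnt2 (27.8 and 35.2 CPM per kb) was above fast Tnnt3 (20.9 and 20.6 CPM per kb) and slow Tnnt1 (7.52 and 9.75 CPM per kb) in both libraries. Slow troponin C, Tnnc1, stood at 63.2 and 35.5 CPM per kb and fast Tnnc2 at 35.7 and 9.79, ranges that overlap slightly. For troponin I the order was the reverse, fast Tnni2 at 31.1 and 8.97 CPM per kb and slow Tnni1 at 15.5 and 6.94, again with overlap. Tropomyosin gene Tpm2 was at 51.6 and 24.7 CPM per kb.

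All 11 measured Z-disc and intermediate filament genes passed 1 CPM. Filamin C (Flnc), which ties the Z-disc to the membrane, was at 57.5 and 34.7 CPM per kb (1647 and 993 CPM), and desmin (Des), the intermediate filament of muscle, at 47.4 and 23.6 CPM per kb (391 and 195 CPM). Tcap, the cap on titin's end, had few reads on a very short gene (15.4 and 5.78 CPM, or 13.5 and 5.06 CPM per kb). Per kb that put it, in each library, above the cross-linker genes Actn2 (5.84 and 2.03) and Actn3 (9.26 and 3.76) and the scaffold Ldb3 (4.64 and 4.44). Myoz1 was at 1.32 and 1.03 CPM per kb, and Myot, which encodes myotilin, at 2.72 and 0.276 (58.8 and 5.98 CPM).

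**Figure D2:**
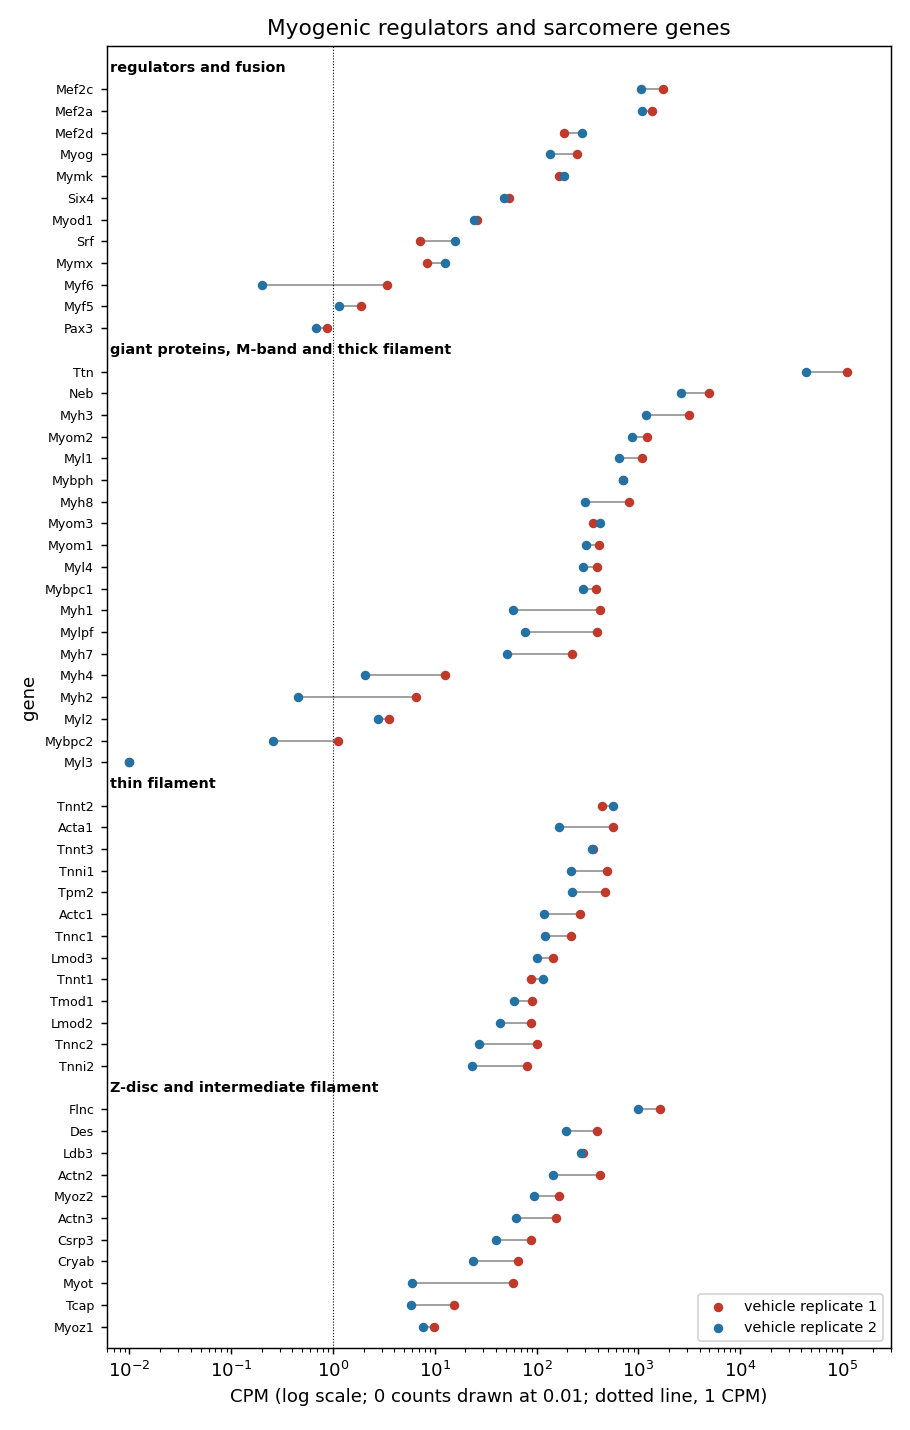
Levels of myogenic regulators and of sarcomere genes in vehicle replicate 1 (red) and replicate 2 (blue), in CPM on a log scale, with genes ordered by mean within each group and a dotted line at 1 CPM; genes in the runs at 0 are left out. Ttn lies alone at 112171 and 44379 CPM, most sarcomere genes have the red point on the right, and Myl3 is at 0 in both.

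Excitation-contraction coupling genes were read almost completely, 14 of 15 reaching 1 CPM in both libraries. The calcium release channel Ryr1 (1177 and 1259 CPM) and the voltage sensor subunits Cacna1s (432 and 479 CPM), Cacna2d1 (1622 and 1047 CPM), Cacnb1 (124 and 174 CPM) and Cacng1 (307 and 208 CPM) were all present. Ryr3, a form of immature muscle, was at 0.889 and 0.746 CPM per kb, under Ryr1 at 9.66 and 10.3. The calcium store protein of slow and cardiac muscle, Casq2, was at 12.3 and 10.0 CPM per kb. That of fast fibres, Casq1, was at 4.42 and 0.288. The calcium pumps Atp2a1 (16.1 and 5.90 CPM per kb) and Atp2a2 (9.70 and 7.20) overlapped, and Sln, a small pump regulator, had only 2 and 6 counts.

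Genes of the membrane complex and the nerve-muscle junction were all at 1 CPM or more, 16 of 16, and none of the 15 with at least 100 counts in each library was more than 2-fold apart. Over all features with that many counts, 1.50% were more than 2-fold higher in replicate 1 and 2.50% in replicate 2, so a count of 0 among 15 is near the background. Dystrophin (Dmd), which links the cytoskeleton to the matrix, was at 2313 and 1531 CPM, but over its very long gene only 1.02 and 0.678 CPM per kb. Its relative Utrn was at 2.42 and 3.03 CPM per kb. Dysf, which serves membrane repair, was at 981 and 1286 CPM, and the sarcoglycan Sgcd at 1513 and 971 CPM. Of the acetylcholine receptor subunits, fetal Chrng (17.1 and 23.4 CPM per kb) was far above adult Chrne (0.588 and 0.506 CPM per kb). Chrna1 (15.6 and 10.5), Chrnd (12.9 and 16.3) and Chrnb1 (6.61 and 8.75 CPM per kb) lay between. The agrin receptor genes Musk (219 and 248 CPM) and Lrp4 (183 and 270 CPM) and the receptor-clustering gene Rapsn (46.1 and 58.9 CPM) were read as well. Enzymes of muscle energy supply ranged from enolase Eno3 (40.9 and 21.2 CPM per kb) through phosphofructokinase Pfkm (4.33 and 2.67 CPM per kb) down to Ckmt2, with 14 and 3 counts. The creatine kinase Ckm was at 50.9 and 7.55 CPM.

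The replicates were not alike for contractile genes and some other muscle genes. Of 9257 features with at least 100 counts in each library, 139 (1.50%) were more than 2-fold higher in replicate 1 and 231 (2.50%) in replicate 2. In the muscle list 25 of 84 such genes were more than 2-fold higher in replicate 1 and 1, the serum response factor gene Srf (7.13 and 15.8 CPM), in replicate 2. Those 25 were Ttn, Myh1, Myh3, Myh7, Myh8, Mylpf, Acta1, Actc1, Tnni1, Tnni2, Tnnc2, Tpm2, Lmod2, Actn2, Actn3, Myot, Des, Csrp3, Tcap, Cryab, Atp2a1, Casq1, Trdn, Ckm and Ampd1. The widest ratios were those of Casq1 (15.3-fold), Myot (9.84-fold), Myh1 (7.15-fold) and Ckm (6.75-fold). In all, 62 of 84 muscle genes were higher in replicate 1, with a median log2 ratio of 0.53, against 2870 of 9257 features and a median of -0.19. With TMM scaling, a normalization that discounts extreme genes, log2 ratios shift by 0.158 towards replicate 1, and the muscle counts become 65 higher and 28 over 2-fold, against 4327 features higher, 201 over 2-fold towards replicate 1 and 109 towards replicate 2. By group the median log2 ratio was 1.15 for Z-disc genes, 1.03 for thin filament genes and 0.75 for thick filament and M-band genes. It was 0.84 for the 6 muscle energy enzymes with enough counts and 0.34 for excitation-contraction coupling genes. Regulators were at 0.08 and membrane and junction genes at -0.22. With 1 library on each side there is no test of these differences. The neuron markers given above were also higher in replicate 1.

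Matrix genes formed a group nearly as widely read. Of 65 listed genes, 62 were measured and 57 (91.9%) reached 1 CPM in both libraries, against 51.2% of all measured features. The medians were 83.4 and 110 CPM. Muscle cells make much of the basement membrane around them, and fibronectin and fibrillar collagens are made by many cells of the mesenchyme.

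Fibronectin (Fn1) was the highest matrix gene both by CPM (1730 and 2351) and per kb (25.6 and 34.7 CPM per kb) in each library. Among collagens the fibrillar chain Col3a1 was highest per kb, at 16.5 and 16.5 (630 and 631 CPM). The regulatory fibril chains Col5a1 (649 and 1369 CPM) and Col5a2 (687 and 946 CPM) stood at 4.24 and 8.94 and at 5.33 and 7.33 CPM per kb. The partners of type I collagen were unequal: Col1a2 was at 7.39 and 9.92 CPM per kb and Col1a1 at 1.37 and 3.05. Basement membrane chains Col4a1 (0.841 and 1.53) and Col4a2 (0.860 and 1.67 CPM per kb), which share a start region and are paired in the protein, were nearly level with each other in each library. All 13 measured collagens reached 1 CPM, the lowest being Col15a1 at 3.72 and 1.91 CPM.

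Laminin alpha-2 (Lama2), the chain of the muscle basement membrane, was at 1089 and 768 CPM, and alpha-5 (Lama5) at 175 and 300 CPM. Over their lengths the order was Lama5 (3.53 and 6.06 CPM per kb) above Lama2 (1.70 and 1.20 CPM per kb). Perlecan (Hspg2) stood at 716 and 869 CPM, fibrillin Fbn1 at 944 and 928 CPM and versican (Vcan) at 637 and 449 CPM. By contrast Fbn2 had 6 and 3 counts, elastin (Eln) 14 and 3, and lumican (Lum) 0 in both. Thbs1, a secreted activator of latent TGF-beta, was at 13.4 and 31.9 CPM per kb, and its relative Thbs2 at 0.133 and 0.221.

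The enzymes that finish collagen were read throughout, all 9 measured at 1 CPM or more. Per kb the collagen chaperone Serpinh1 led (12.9 and 14.7), followed by the prolyl hydroxylase P4ha1 (4.39 and 4.52), the propeptide-removing Bmp1 (2.54 and 4.86) and the lysyl hydroxylase Plod2 (2.10 and 2.37), with overlap between P4ha1 and Bmp1. Proteases lay in the same range. The aggrecan-cutting Adamts5 was at 4.67 and 3.46 CPM per kb (213 and 158 CPM), Adamts1 at 3.17 and 2.97, membrane-bound Mmp14 at 1.71 and 3.56 and gelatinase Mmp2 at 1.54 and 2.67, while Mmp9 had 1 and 2 counts. The inhibitor Timp2 was at 4.48 and 5.06 CPM per kb, above Mmp2, Mmp14 and Adamts1 in each library and overlapping Adamts5. Timp3, at 1.85 and 3.14, overlapped Mmp2, Mmp14 and Adamts1 and was under Adamts5 in each library. Of the integrins, the laminin receptor of muscle Itga7 was highest (19.3 and 23.7 CPM per kb), followed by the common partner Itgb1 (7.38 and 6.66 CPM per kb).

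Matrix genes were more often higher in replicate 2, as features in general were. Of 52 with at least 100 counts in each library, 43 (82.7%) were higher there by CPM, against 6387 of 9257 features (69.0%), and 4 were more than 2-fold higher, against 2.50% of features: Col1a1 (2.22-fold), Col5a1 (2.11-fold), Thbs1 (2.38-fold) and Mmp14 (2.08-fold). With TMM scaling 38 (73.1%) were on that side, against 4930 features (53.3%), and 1 was over 2-fold. The median log2 ratio was -0.43 by library total and -0.27 by TMM, against -0.19 and -0.03 for all features.

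**Figure D3:**
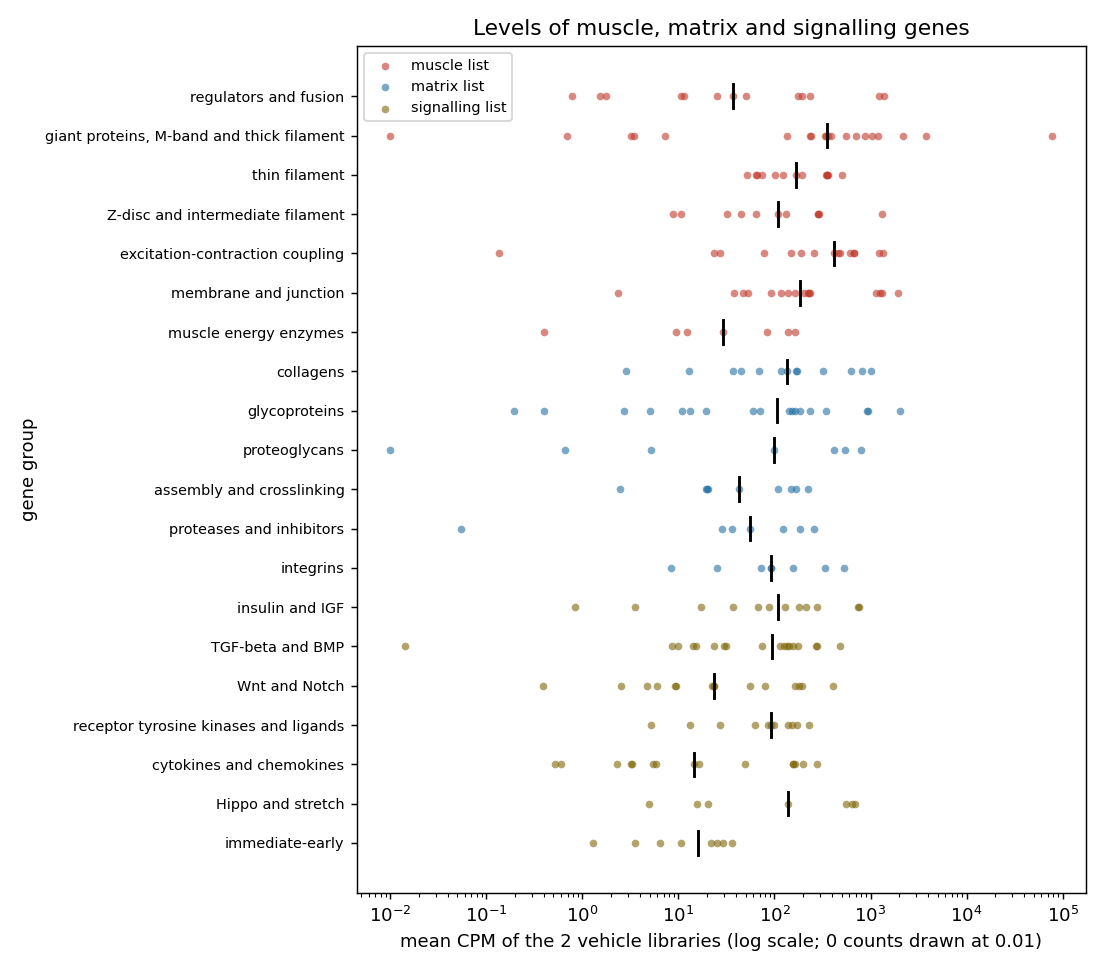
Mean CPM of the 2 vehicle libraries (x axis, log scale) for each measured gene of the muscle (red), matrix (blue) and signalling (olive) lists, 1 row per gene group, with a black bar at each group's median; genes at 0 are drawn at 0.01. Muscle groups other than regulators and energy enzymes have medians above 100 CPM, and immediate-early and cytokine genes have medians of 16.1 and 14.5 CPM.

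Signalling genes reached 1 CPM in both libraries for 80 of 86 measured members (93.0%), against 51.2% of all measured features. Their medians were 34.0 and 41.6 CPM. In insulin and IGF signalling, the receptor Igf1r was at 695 and 801 CPM and the insulin receptor Insr at 194 and 170 CPM, or 2.47 and 2.85 against 1.23 and 1.08 CPM per kb. The ligands were lower by CPM, Igf1 at 39.4 and 34.3 and Igf2 at 94.0 and 41.7. Per kb, however, Igf2 (5.86 and 2.60) overlapped Igf1r. Igfbp5, the binding protein that muscle cells secrete as they differentiate, stood far above its relatives at 65.9 and 23.5 CPM per kb (1117 and 398 CPM). Igfbp4 was at 0.325 and 0.214 CPM per kb, and Igfbp3 was under 1 CPM. The adaptor Irs1 (5.12 and 4.36 CPM per kb) was above Irs2 (0.598 and 0.831).

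In the TGF-beta family, myostatin (Mstn), which restrains muscle growth, had 0 and 1 counts, at or under the floor in each library. Follistatin (Fst), which binds and blocks it, was at 73.5 and 73.9 CPM. Both type II receptors used by myostatin were read, Acvr2a at 280 and 256 CPM and Acvr2b at 14.9 and 31.8 CPM. Of the TGF-beta ligands, Tgfb3 (5.04 and 5.12 CPM per kb) was above Tgfb2 (1.54 and 1.69) and Tgfb1 (0.397 and 0.696). The latent binding protein Ltbp1 was at 361 and 592 CPM and the receptor Tgfbr1 at 145 and 106 CPM. Smad2 (134 and 149 CPM, or 1.93 and 2.15 CPM per kb) and Smad4 (149 and 163 CPM, or 2.30 and 2.51 CPM per kb) carry the signal to the nucleus, and the feedback inhibitor Smad7 was at 18.2 and 41.6 CPM.

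Notch and Wnt genes were read at each step of their pathways. Of the receptors, Notch2 stood at 2.76 and 3.12 CPM per kb (378 and 428 CPM), Notch1 at 2.56 and 3.59 (150 and 211 CPM) and Notch3 at 1.25 and 1.16 (57.6 and 53.2 CPM). The Notch ligands Jag1 (2.18 and 2.30 CPM per kb) and Dll1 (2.42 and 2.32) were above Notch3 and under Notch1 and Notch2 in each library. Of Wnt receptors, Lrp6 was at 1.52 and 1.66 CPM per kb and Fzd4 at 0.360 and 0.221, while the transducer beta-catenin (Ctnnb1) was at 5.43 and 5.15. The Wnt ligands Wnt9a (0.582 and 1.19 CPM per kb) and Wnt4 (0.176 and 0.248) were under Lrp6. Target genes were low by CPM, but per kb Hes1 (1.92 and 1.61) overlapped Lrp6, with Heyl at 0.709 and 0.442, Axin2 at 0.261 and 0.346 and Hey1 at 0.105 and 0.0950. All 11 growth factor receptor and ligand genes reached 1 CPM, from Vegfa (171 and 283 CPM) to Pdgfra (5.81 and 4.64 CPM). Pdgfra, a marker of the fibro-adipogenic cells of muscle, was at 0.126 and 0.101 CPM per kb, against 3.03 and 5.56 for Pdgfrb.

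The signalling receptor chains of the IL-6 family were read above the ligands Il6 and Lif. The shared receptor Il6st was at 220 and 173 CPM, Lifr at 330 and 222 CPM, Osmr at 130 and 195 CPM and the transducer Stat3 at 127 and 188 CPM. Il6 was under 1 CPM in both libraries (0.560 and 0.627 CPM) and Lif was at 1.53 and 4.81 CPM. Per kb that is 0.0816 and 0.0912 for Il6 and 0.102 and 0.322 for Lif, against 4.78 and 3.76 for Il6st, 3.08 and 2.08 for Lifr and 2.11 and 3.17 for Osmr. The IL-6-binding chain Il6ra was lower, at 0.229 and 0.362 CPM per kb (11.3 and 17.8 CPM), above Il6 but overlapping Lif. The chemokine Ccl2 was also under 1 CPM (0.764 and 0.285 CPM). In the Hippo pathway, which senses stretch and contact, the coactivator Wwtr1 (572 and 712 CPM) and the factors Tead1 (561 and 816 CPM) and Tead4 (444 and 664 CPM) were the highest by CPM, with Yap1 at 127 and 150 CPM. Their target genes Ccn1 (10.3 and 20.9 CPM) and Ccn2 (3.11 and 6.83 CPM) were lower by CPM. Per kb Ccn1 (3.42 and 6.96) overlapped Wwtr1 (4.76 and 5.92).

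Immediate-early genes, which cells switch on within minutes of a stimulus, had few reads but are short. Per kb of the whole gene Jun (8.26 and 10.05), Egr1 (4.81 and 9.30), Myc (5.73 and 4.33), Junb (3.27 and 6.99) and Ier2 (2.61 and 5.84) lay above the median of 1.43 over features with at least 100 counts in each library. By CPM the same 5 ran from 3.97 (Ier2, replicate 1) to 48.0 (Egr1, replicate 2). Fos was at 1.48 and 0.606 CPM per kb, Fosb at 0.0762 and 0.275 and Atf3 at 0.191 and 0.250. Of signalling genes with at least 100 counts in each library, 2 of 70, Igf2 and Igfbp5, were more than 2-fold higher in replicate 1 (2.86%, against 1.50% of features), and 5, Acvr2b, Smad7, Wnt9a, Ccn1 and Junb, in replicate 2 (7.14%, against 2.50%). With TMM scaling the 5 fell to 1. By library total 48 of 70 (68.6%) were higher in replicate 2, and with TMM scaling 36 (51.4%), against 69.0% and 53.3% of all features.

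Steroid receptor genes were unequal. Nr3c1, the glucocorticoid receptor, was at 226 and 195 CPM (95% exact Poisson intervals 219 to 233 and 190 to 199 CPM, for counting error only). Estrogen receptor alpha (Esr1) was at 130 and 86.5 CPM, and the mineralocorticoid receptor Nr3c2 at 30.3 and 44.0 CPM. Esr2 had 7 and 6 counts, and the progesterone receptor (Pgr) had none in either library. The exact Poisson intervals of Pgr reach 0.188 and 0.105 CPM. Per kb the order was Nr3c1 (2.07 and 1.79), Esr1 (0.331 and 0.220), Nr3c2 (0.0876 and 0.127) and Esr2 (0.00627 and 0.00301). Ranges of neighbours in this order did not overlap.

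The chaperones that fold and hold these receptors were all read, 7 of 7 at 1 CPM or more. Of the HSP90 pair, Hsp90ab1 was far higher (35.5 and 13.5 CPM per kb) than Hsp90aa1 (0.492 and 0.456 CPM per kb). Hsp90ab1 also was the 1 gene of the steroid list more than 2-fold higher in replicate 1 (195 and 74.0 CPM), 1 of 40 against 1.50% of features. The cochaperone p23 (Ptges3) stood at 62.8 and 70.3 CPM, and the immunophilins Fkbp4 and Fkbp5 at 14.7 and 8.77 and at 20.4 and 23.3 CPM. Fkbp5 lowers hormone binding by the receptor and is itself a known glucocorticoid target. HSP90 genes have near-identical processed copies in the genome, so their counts are uncertain.

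All 9 coregulators reached 1 CPM, at medians of 225 and 235 CPM. The acetyltransferases Crebbp (3.26 and 3.44 CPM per kb, 432 and 457 CPM) and Ep300 (3.37 and 3.52 CPM per kb, 225 and 235 CPM) overlapped and were above the corepressor Ncor1 (2.79 and 2.81 CPM per kb, 397 and 399 CPM). Of the p160 coactivators, Ncoa2 (1.06 and 1.31 CPM per kb) was above Ncoa3 (0.659 and 0.842) in both libraries, and Ncoa1 (0.984 and 0.832) overlapped Ncoa3. The mediator subunit Med1 was nearly equal in the libraries (111 and 111 CPM). These proteins serve many nuclear receptors and other factors besides those for steroids.

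Enzymes that make or remove active hormone ranged widely. Hsd11b1, which regenerates active glucocorticoid from its inactive form, was at 6.93 and 7.69 CPM, while Hsd11b2, which inactivates it, had 1 count in each library. H6pd, which supplies Hsd11b1 with cofactor, was at 26.4 and 42.1 CPM. The reductases Srd5a1 (0.917 and 1.37 CPM) and Srd5a2 (0.611 and 0.598 CPM), which act on testosterone, lay near or under 1 CPM. Hsd17b4 (73.1 and 68.3 CPM) and Hsd17b12 (80.9 and 109 CPM), whose main known work is in fatty acid metabolism, were the highest of this group by CPM. Per kb H6pd (0.895 and 1.42) overlapped Hsd17b4 (1.07 and 1.00) and was above Hsd17b12 (0.646 and 0.871).

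Among 25 other nuclear receptors, 22 reached 1 CPM in both libraries. Per kb, the circadian repressor Nr1d1 (4.04 and 2.66) and the oxysterol receptor Nr1h2 (2.07 and 3.90) had the highest means. Rxra, a common partner of these receptors, was at 0.906 and 1.80 CPM per kb (78.3 and 156 CPM). Its relative Rxrb was at 1.63 and 3.22 CPM per kb (10.8 and 21.2 CPM), higher in each library with ranges that overlap, and Rxrg at 0.0778 and 0.138. The retinoic acid receptor Rara, at 29.9 and 83.8 CPM, was 2.80-fold higher in replicate 2. Of the PPARs, Ppard (61.6 and 112 CPM) and Pparg (85.8 and 66.6 CPM) were read and Ppara was near 1 CPM (0.713 and 1.37). The thyroid receptor Thra stood at 34.3 and 46.0 CPM and Thrb at 0.204 and 0.342 CPM. Over the whole steroid list 47 of 55 measured members (85.5%) reached 1 CPM, against 51.2% of all measured features. The medians of the list were 29.3 and 38.7 CPM. Its sides followed those of all features (27 of 40, or 67.5%, higher in replicate 2 by library total and 19, or 47.5%, by TMM, against 69.0% and 53.3%).

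**Figure D4:**
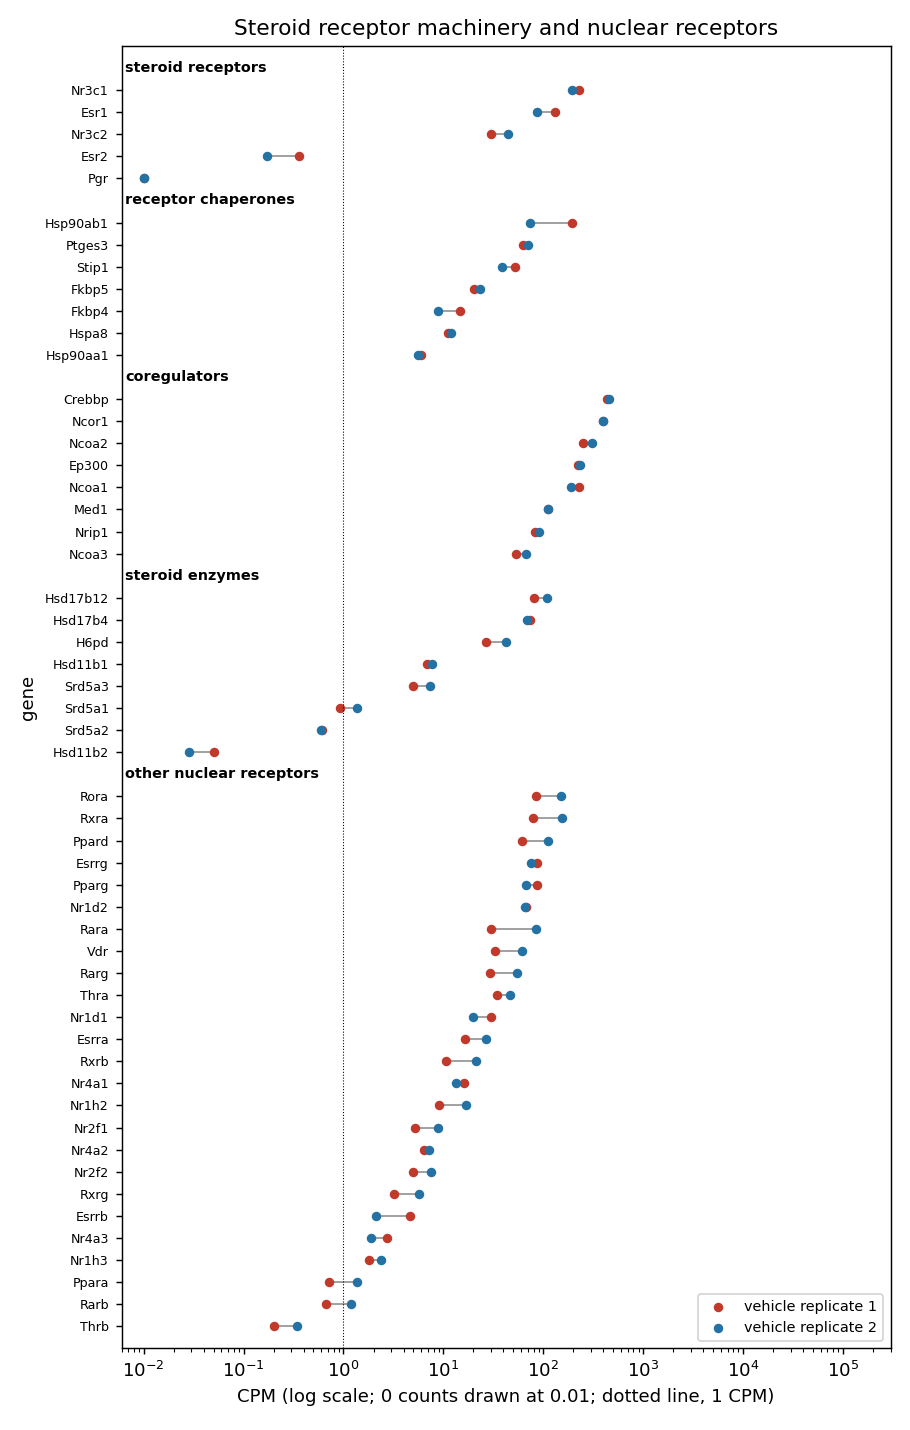
Levels of steroid receptors, chaperones, coregulators, steroid enzymes and other nuclear receptors in vehicle replicate 1 (red) and replicate 2 (blue), in CPM on a log scale with a dotted line at 1 CPM; 0 counts are drawn at 0.01. Nr3c1 (226 and 195 CPM) is the rightmost of the steroid receptors, Pgr is at 0, and all coregulators drawn lie to the right of 50 CPM.

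Noncoding features, 2456 in the table, held 4.52% of counts in replicate 1 and 4.29% in replicate 2, and 1.59% and 1.71% without Malat1. Of these features, 382 reached 1 CPM in both libraries and 5 were among the 100 highest by mean level. Of the 50 noncoding genes listed by name, 45 were measured and 31 (68.9%) reached 1 CPM in both. That stands against 382 of all 2456 noncoding features and 51.2% of all measured features. Many long noncoding RNAs stay in the nucleus, some at the locus that makes them and others, such as Malat1, in nuclear bodies away from it.

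Malat1 and its neighbour Neat1, the scaffold of paraspeckles, differed widely: Neat1 was at 43.3 and 75.3 CPM per kb (900 and 1564 CPM), against 4194 and 3709 for Malat1. Pvt1, next to Myc, was at 984 and 1078 CPM but only 2.89 and 3.17 CPM per kb. Dleu2, host of the miR-15 and miR-16 genes, was at 161 and 138 CPM, and Morrbid at 448 and 537 CPM. The cytoplasmic RNA Norad was low, at 0.446 and 0.626 CPM per kb (2.19 and 3.08 CPM). A long RNA named 2610307P16Rik, at 318 and 250 CPM, was among the 15 highest noncoding features.

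Around the X-inactivation centre, Xist was at 4026 and 3649 CPM in this line labelled female, and the nearby genes Ftx (170 and 158 CPM) and Jpx (32.3 and 44.0 CPM) were read. Tsix, the antisense of Xist, was at 8.41 and 5.44 CPM. Whether counting used strand is not stated, so reads where Tsix and Xist overlap cannot be told apart with certainty.

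Imprinted RNAs split by locus. H19, made from the maternal chromosome beside Igf2, was the highest of these per kb (116 and 108 CPM per kb, 302 and 284 CPM). The long silencing RNAs Airn (440 and 518 CPM) and Kcnq1ot1 (251 and 296 CPM) were at 3.71 and 4.36 and at 2.70 and 3.18 CPM per kb. At the Dlk1-Dio3 locus, Meg3 had 133 counts in replicate 1 and 1 in replicate 2, Rian 31 and 0, and Mirg 0 in both. Meg3 belongs to the set of features more than 10-fold higher in replicate 1 described with the neuron markers.

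Host genes of small nucleolar RNAs are short and were densely read. Gas5 was at 90.5 and 92.1 CPM, Snhg1 at 42.1 and 40.0 CPM and Snhg12 at 21.1 and 33.7 CPM. Per kb that is 22.0 and 22.4, 14.2 and 13.5, and 8.80 and 14.05, against the median of 1.43 over features with at least 100 counts in each library. Snhg11 followed the pattern of Meg3, with 45 counts and 1. Of the structured RNAs, Rmrp was at 1477 and 1223 CPM, and Rpph1 was 3.84-fold higher in replicate 2 (65.1 and 250 CPM). The telomerase RNA Terc had 16 and 48 counts. The microRNA host Mir143hg (51.7 and 122 CPM) was the other noncoding gene more than 2-fold higher in replicate 2, and none of the 28 with at least 100 counts in each library was so in replicate 1. The 2 of 28 and 0 of 28 stand against 2.50% and 1.50% of features.

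The muscle microRNAs miR-206 and miR-133b, made from neighbouring genes on chromosome 1, are shown because Mir133b was the highest microRNA gene per kb among those with at least 100 counts in each library. The mature sequences are from RefSeq (GRCm38.p6), with the seed, bases 2 to 8, in capitals; the seeds differ, so they belong to different families.
mmu-miR-133b-3p, chr1:20682834-20682855, plus strand: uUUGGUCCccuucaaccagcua
mmu-miR-206-3p, chr1:20679055-20679076, plus strand: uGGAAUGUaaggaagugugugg

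Mir133b had 598 and 972 counts (30.5 and 27.7 CPM, with exact Poisson intervals of 28.1 to 33.0 and 26.0 to 29.5). Mir206 had 69 and 124 counts (3.51 and 3.53 CPM). Mir133a-1 had 29 and 21 counts and Mir1a-2 had 8 in each library. Mir1a-1, Mir133a-2, Mir208b, Mir499 and Mir486 had none, of which Mir208b, Mir499 and Mir486 lie inside a gene of the same strand. The host transcript Mir1a-1hg had no gene length in the annotation used, so whether Mir1a-1 or Mir133a-2 lies inside it was not tested. The lack of counts at Mir1a-1 and Mir133a-2 was therefore not read as absence. The long host transcript Mir1a-1hg was at 545 and 750 CPM, the seventh highest noncoding feature. These counts are reads over the precursor genes in a long RNA library and do not measure mature microRNA.

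**Figure D5:**
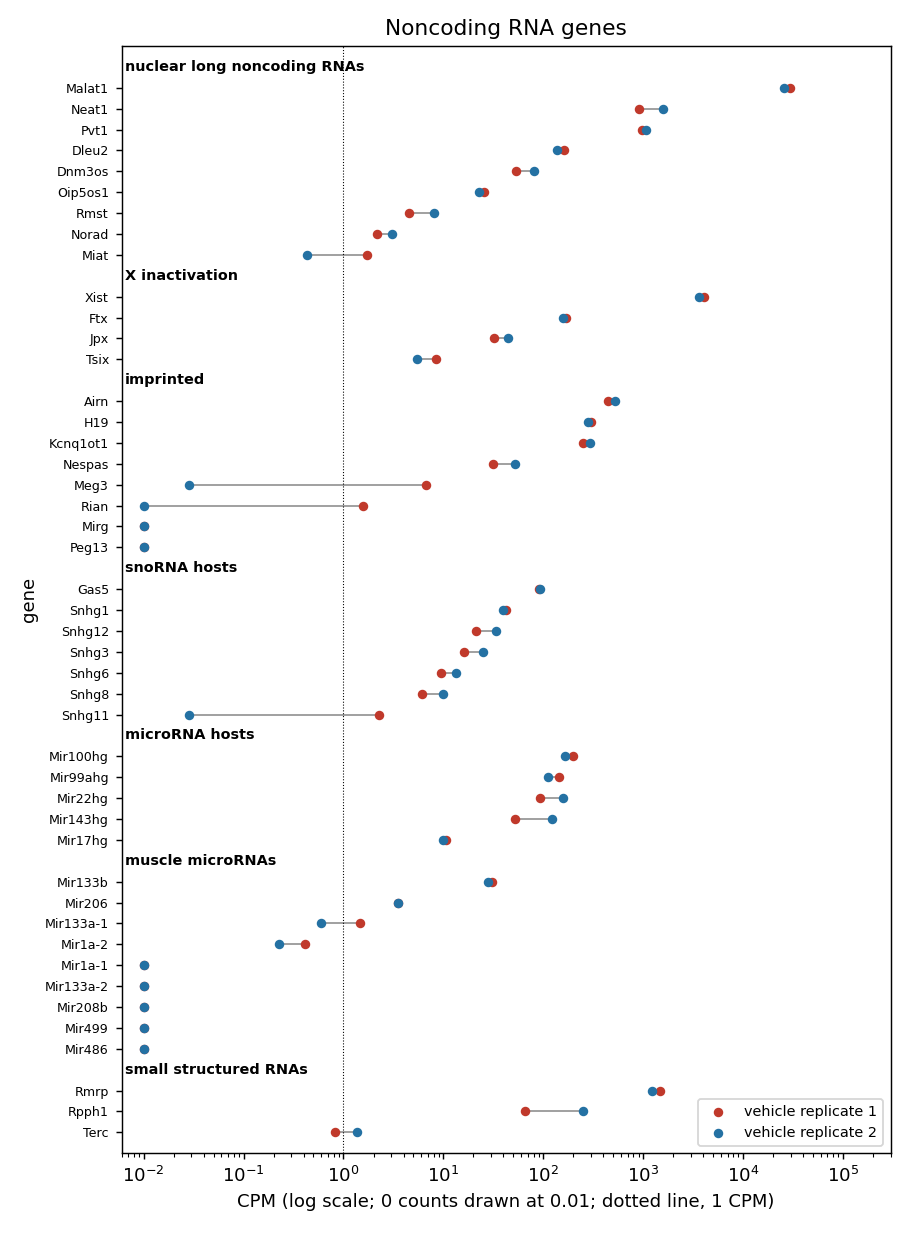
Levels of noncoding RNA genes by group in vehicle replicate 1 (red) and replicate 2 (blue), in CPM on a log scale with a dotted line at 1 CPM; 0 counts are drawn at 0.01. Malat1 is highest (29284 and 25898 CPM), and the widest gaps between the libraries are those of Meg3 (133 and 1 counts), Rian (31 and 0) and Snhg11 (45 and 1).

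Markers of other cell types were mostly near 0. Of 41 measured, 12 reached 1 CPM in both libraries (29.3%, against 51.2% of all measured features), with medians of 0.306 and 0.0854 CPM. The liver markers Alb, Apoa1 and Ttr had no count, and neither did Hba-a1, Kdr, Plin1, Cidec, Epcam, Krt5 or Acan. Other members of these groups were read. At 1 CPM in both libraries were 1 of 4 measured endothelium, 1 of 4 epithelium, 1 of 2 smooth muscle and 2 of 5 bone and cartilage markers. The epithelium markers summed to 7.49 and 4.10 CPM. Of 4 adipocyte markers 0 reached 1 CPM. The leukocyte gene Ptprc had 0 and 1 counts, although the lysosomal macrophage marker Cd68 stood at 3.41 and 3.70 CPM. Runx2, a factor of bone, was well read at 351 and 525 CPM, while the later bone genes Sp7 (2 and 8 counts) and Bglap (0 and 2 counts) were not. Cardiac Myh6 was at 11.9 and 5.21 CPM, 2.28-fold higher in replicate 1, and the other heart markers Myl7, Nppa and Nkx2-5 had 2 counts or fewer in each library.

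The satellite cell factor Pax7 was at 30.4 and 42.2 CPM, or 0.315 and 0.437 CPM per kb against 97.6 and 53.3 for Myog. The cycle genes Mki67 (0.311 and 0.268 CPM per kb), Top2a (0.297 and 0.310), Cdk1 (0.192 and 0.267) and Rrm2 (0.819 and 0.728) were detected below the median of 1.43, and Aurkb was under 1 CPM in both.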

How the data were processed

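Chromatin RNA of 2 vehicle libraries was analysed. The authors deposited raw read counts per gene in 1 table for the series; the submitters' processing notes name TopHat2 2.0.13, SAMtools 1.1, HTSeq 0.6.1, DESeq2 1.18.1 and build mm9, with no role or order. Per the labels' protocols, a stranded total RNA kit and a stranded mRNA kit are both named. Whether introns, strand or reads with several matches were counted is not given in the sources used here. Samples were grouped by title, and columns were matched by name.

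Of 23333 rows, 51 repeated an earlier row with all its counts and were used once, leaving 23282 features. CPM is counts per 1000000 of the library total. GENCODE M21 (GRCm38) gave gene lengths, strands and neighbours for 98.95% of features; none of its coordinates are printed. Means carry the SD of 2 libraries, shares 95% Wilson and levels exact Poisson intervals, which cover counting error only. The level threshold was 1 CPM in both libraries, and fold differences needed 100 counts in each.

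Named were members of the gene lists, the 20 highest features by mean CPM, the 15 highest per kb of exons, the 15 highest noncoding features and list members over 2-fold apart; features over 10-fold higher in 1 library, those per kb of the whole gene and the promoters were chosen later. The libraries and the gene lists were chosen with earlier results of these data known. The alternatives were TMM scaling (edgeR 4.0.16, R 4.3.3), a total without Ttn and Malat1, all rows, thinning, other thresholds, per-kb ranks and each library alone. The code for runs, nesting and CPM was tested on simulated data. Python 3.11.15, numpy 2.4.6, pandas 2.3.3 and scipy 1.17.1 were used. Symbols with no row in the table (Sts, Lncpint, Rn7sk, Rny1, Rny3, Hbb-bs) were not analysed here, and a few list members are not reported by name, though list counts and medians include them.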

Additional observations from a re-analysis of the deposited data

How the results depend on the processing

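The number of features at 1 CPM in both libraries, the share held by the 20 highest and each list's count at 1 CPM stayed within 1.5 times or within the spread under every alternative that applied to them. In all, 90 of 99 comparisons were of that kind, some of them fixed in advance. Scaling cannot change the share held by the 20 highest, and leaving out 1 of 2 libraries cannot move it beyond their SD. That share was 20.9% in replicate 1 and 13.2% in replicate 2. The median of the muscle list without replicate 1 was 121 CPM (range over leaving out either library 121 to 186 CPM). That of the noncoding list was 27.0 CPM with a total without Ttn and Malat1, and 21.1 to 25.03 CPM with a library left out. Genes over 2-fold higher in replicate 2 numbered 109 with TMM scaling and 136 with the total without Ttn and Malat1, against 231. With at least 10 counts in each library they numbered 549, and those higher in replicate 1 461. Of the 20 highest genes by CPM, 11 were among the 20 highest per kb of exons and 5 per kb of the whole gene. The cause of the shifts was not tested. Of 2394 values of single genes, 132 moved by more than the spread. With either library left out, all 399 values counted as unmoved, which the SD of 2 libraries fixes in advance. Those comparisons therefore say nothing about how stable a gene's level is. No paired analysis was possible because only 1 group was described and no comparison between groups was made.

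Limits: 2 libraries give 1 degree of freedom, the counting rules are not known, and genes in the runs at 0 or inside another gene of the same strand may be missed. At this depth a gene at 0 can hold up to 0.153 CPM in replicate 1 and 0.0854 CPM in replicate 2.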

Other observations

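Gene families outside the lists, chosen after their values were seen, add to this picture of myotube chromatin. Of 72 ribosomal protein genes, 68 (94.4%) reached 1 CPM in both libraries, at medians of 10.1 and 12.2 CPM and led by Rpl5 at 89.8 and 57.3 CPM. These genes have many processed copies, so shared reads may have been dropped. Of 57 canonical histone genes, which dividing cells transcribe in S phase, 6 (10.5%) reached 1 CPM in both libraries, and the highest was H2bc4 at 14.98 and 7.97 CPM. A total RNA and an mRNA kit are both named, and whether reads with several matches were counted is not given. The share therefore does not measure how many cells were in S phase.

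Odorant receptor genes were nearly unread. None of 1077 reached 1 CPM in both libraries, 1026 had no count, and the highest, Olfr18, was at 0.662 and 0.513 CPM. Of 347 vomeronasal receptor genes, 4 reached 1 CPM and 310 had no count, with Vmn2r96 highest at 4.99 and 4.61 CPM.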
